A study of Homo sapiens with 24 samples.

Results

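The RNA of SK-MES1 cells that had been left untreated for 48 h was compared with that of untreated cells collected at 0 h, using the 3 libraries that the labels assign to each of these time points, 6 of 24 libraries in all. SK-MES1 is an established line from a squamous cell carcinoma of the lung. In the whole study, cells on dishes were kept in medium without serum, supplemented with albumin, for 3 h after which TGFβ1 (2 ng/ml) was or was not added, and RNA was sequenced at 0, 8, 24 and 48 h with 3 biological replicates each. The 0 h cells had therefore spent 3 h without growth factors, and the 48 h cells stayed without added TGFβ for 48 h after that. The comparison asks what changes in these cells over 48 h without added TGFβ, which is also the background against which a response to TGFβ is read. The paper names growth factor-depleted medium for the stimulation as well. Time in culture and longer depletion therefore cannot be told apart here. The 3 h of depletion was shared by all groups, so no group here stands for cells in full serum.

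Cells that leave the division cycle switch off, in order, the genes that copy DNA in S phase and those that build the spindle and separate chromosomes in mitosis. Both sets are held down in resting cells by a repressor complex that sits at cell cycle homology regions and E2F sites of their promoters. Growth factors feed the ERK and AKT kinases, and when these signals fade, FOXO transcription factors, lipid synthesis, lysosomes and inflammatory programs can change together. Cultures that stand for days also become denser and use up their medium, and in bulk RNA fewer cells of a kind cannot be told apart from less RNA per cell.

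The names of the deposited tables carry 4 codes whose meaning is not stated in the sources used here. Untreated 0 h and 8 h libraries share a code, untreated 24 h and 48 h libraries share another, and the TGFβ arm has its own pair. The change from 0 h to 48 h thus crosses a change of code, which falls between 8 h and 24 h, and in that interval time and code cannot be told apart. The changes from 0 h to 8 h and from 24 h to 48 h each stay within a code, and their sum, called the within-code sum below, was used to see which parts of the total change were also present within a code. As a gauge of a difference in code, the 0 h libraries of the arms, which carry different codes and had no time to differ by treatment, were compared as well. Their pair of codes is not the pair that the untreated change crosses. That pair shares no time point, so this comparison cannot gauge the step between 8 h and 24 h. With limma voom 0 of 17454 genes differed at an adjusted p of 0.01 and 800 had an unadjusted p under 0.05. edgeR found 0 genes with 782 at an unadjusted p under 0.05, and DESeq2 found 8 genes with 792.

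The 6 libraries held 48769267 to 63192651 estimated counts, so counting error is small for all genes given with levels of several TPM (a level that takes account of transcript length and library depth). A principal component analysis of the 12 untreated libraries put the time points in order along the first component, which took 50.5% of the variance, with replicates close together. The label of a squamous line was checked against markers. KRT5, KRT6A, KRT14 and DSG3, which define stratified squamous epithelium, were all under 0.1 TPM in the 6 libraries and were not tested. The squamous master regulator TP63 stood at 8.49, 9.99 and 9.38 TPM at 0 h and 36.0, 37.5 and 36.9 TPM at 48 h. SOX2 had 2.16, 1.82 and 2.10 TPM at 0 h and 4.68, 5.56 and 5.45 TPM at 48 h. KRT17 had 0.95, 1.53 and 1.49 TPM at 0 h and 5.65, 5.87 and 4.72 TPM at 48 h. Other squamous markers were present at 0 h and lower at 48 h. These were S100A2 (2792, 2659 and 2880 TPM at 0 h), PKP1 (36.0, 33.2 and 35.9 TPM) and SERPINB5 (19.7, 24.7 and 21.9 TPM). Keratins of simple epithelia were abundant, with KRT18 at 420 ± 12 TPM (SD, n = 3) at 0 h. Of the immune and endothelial markers, CD3E and MS4A1 were at 0 in all 6 libraries, CDH5 was under 0.1 TPM and PTPRC had 1.72 to 2.06 TPM, whereas CD14, PECAM1 and VWF were low at 0 h and higher in every 48 h library, as described with the markers of other cell types.

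Over 48 h, 9613 of 17454 tested genes passed an adjusted p of 0.01 with limma voom. Of all tested genes 28% rose and 27.1% fell, that is 4889 and 4724 genes, and the median log2 change of all genes was 0.01. At least 2-fold changes were seen for 1801 genes upwards and 1191 genes downwards. Within a code, 25.9% of genes passed from 0 h to 8 h (13.2% rose and 12.7% fell), 28.4% from 24 h to 48 h (14.8% and 13.6%) and 31.2% in the within-code sum (16.4% and 14.8%). From 8 h to 24 h, where the code changes, 33% passed, with 16.2% rising and 16.8% falling. Counts of list members below are read against these shares. Fold changes come from the fit of gene counts, in which a shift between long and short transcripts of a gene also counts, and they can depart from the ratio of TPM. The 8 h step was the smaller in size, since 418 of its genes changed at least 2-fold compared with 729 from 24 h to 48 h.

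Of the 4889 rising genes, 3027 (61.9%) also rose within at least one of the codes and 620 rose in both, which is 3.55% of all genes tested. Of the 4724 falling genes, 2787 (59.0%) also fell within at least one code and 650 fell in both, which is 3.72% of genes tested. The within-code sum passed in the same direction for 2498 rising (51.1%) and 2335 falling genes (49.4%), and in the opposite direction for 29 and 51. Its sign was the same for 93.9% of rising and 90.8% of falling genes. The remaining 1862 rising and 1937 falling genes did not pass in the same direction within either code, and for 816 and 937 of these the step from 8 h to 24 h passed in that direction, where the code changes. Among them, 1797 and 1819 passed within neither code in any direction. The total change and the within-code sum share the 0 h and 48 h libraries, so their likeness is partly built in.

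**Figure D1:**
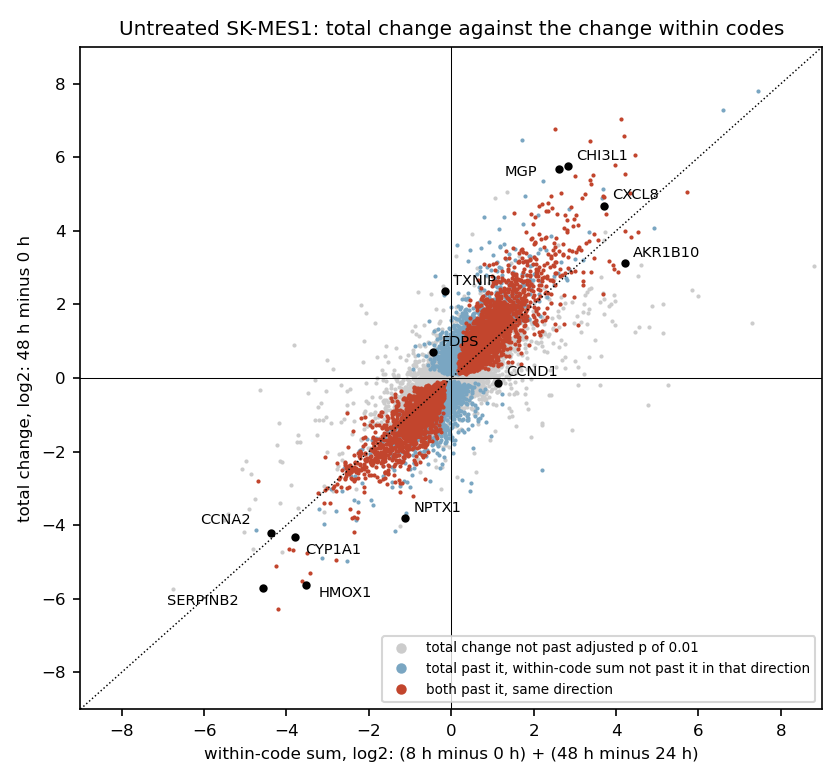
Total log2 change from 0 h to 48 h (vertical axis) against the within-code sum (horizontal axis) for each of 17454 tested genes. Red genes passed in both with the same direction, blue genes passed in the total change but not in the within-code sum in that direction, grey genes did not pass in the total change, named genes are drawn in black and the dotted line marks equal values. CHI3L1, CXCL8, SERPINB2, HMOX1 and CCNA2 lie near the ends of the cloud, whereas TXNIP and FDPS rose in total with a within-code sum below 0.

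The pathways were followed with 43 gene lists. All 48 tested genes of mitosis and all 42 of DNA replication fell, whereas 38 of 39 interferon-stimulated genes and 23 of 27 genes of NF-κB, chemokines and interleukin-1 rose. Read against 28% of all genes rising and 27.1% falling, the lists for chaperones (16 of 19 fell), the proteasome (30 of 31 fell), ATF4 and amino acid genes (21 of 29 fell), ribosomal proteins (55 of 78 fell) and nuclear-encoded oxidative phosphorylation (35 of 51 fell) also leaned one way. Lists that leaned upwards were cholesterol synthesis (21 of 25 rose), fatty acid synthesis (11 of 14), lysosome (26 of 39), FOXO and growth factor withdrawal (16 of 24) and ERK output (14 of 19). Rising and falling members numbered 8 and 8 for hypoxia, 8 and 7 for p53 targets, 8 and 8 for actin and SRF targets and 13 and 12 for the extracellular matrix. A gene can stand in more than one list. With library sizes taken from the reference genes GUSB, HPRT1 and GAPDH, a scaling added after the data were seen, the median of all genes shifted to 0.42, and 83.1% of the calls were then rises, compared with 50.9%. Of all genes tested 52.8% rose and 10.7% fell in that scaling, and list counts given with it are read against these shares. Under that scaling the medians of the lists for ribosomal proteins, nuclear-encoded oxidative phosphorylation, ribosome biogenesis, mesenchymal genes, Notch, glycolysis, hypoxia, endoplasmic reticulum chaperones, integrins, retinoids and proteases turned from below to above 0. All 48 mitosis genes and 40 of 42 replication genes still fell, as did 25 proteasome and 13 chaperone genes, and 38 interferon-stimulated genes rose.

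**Figure D2:**
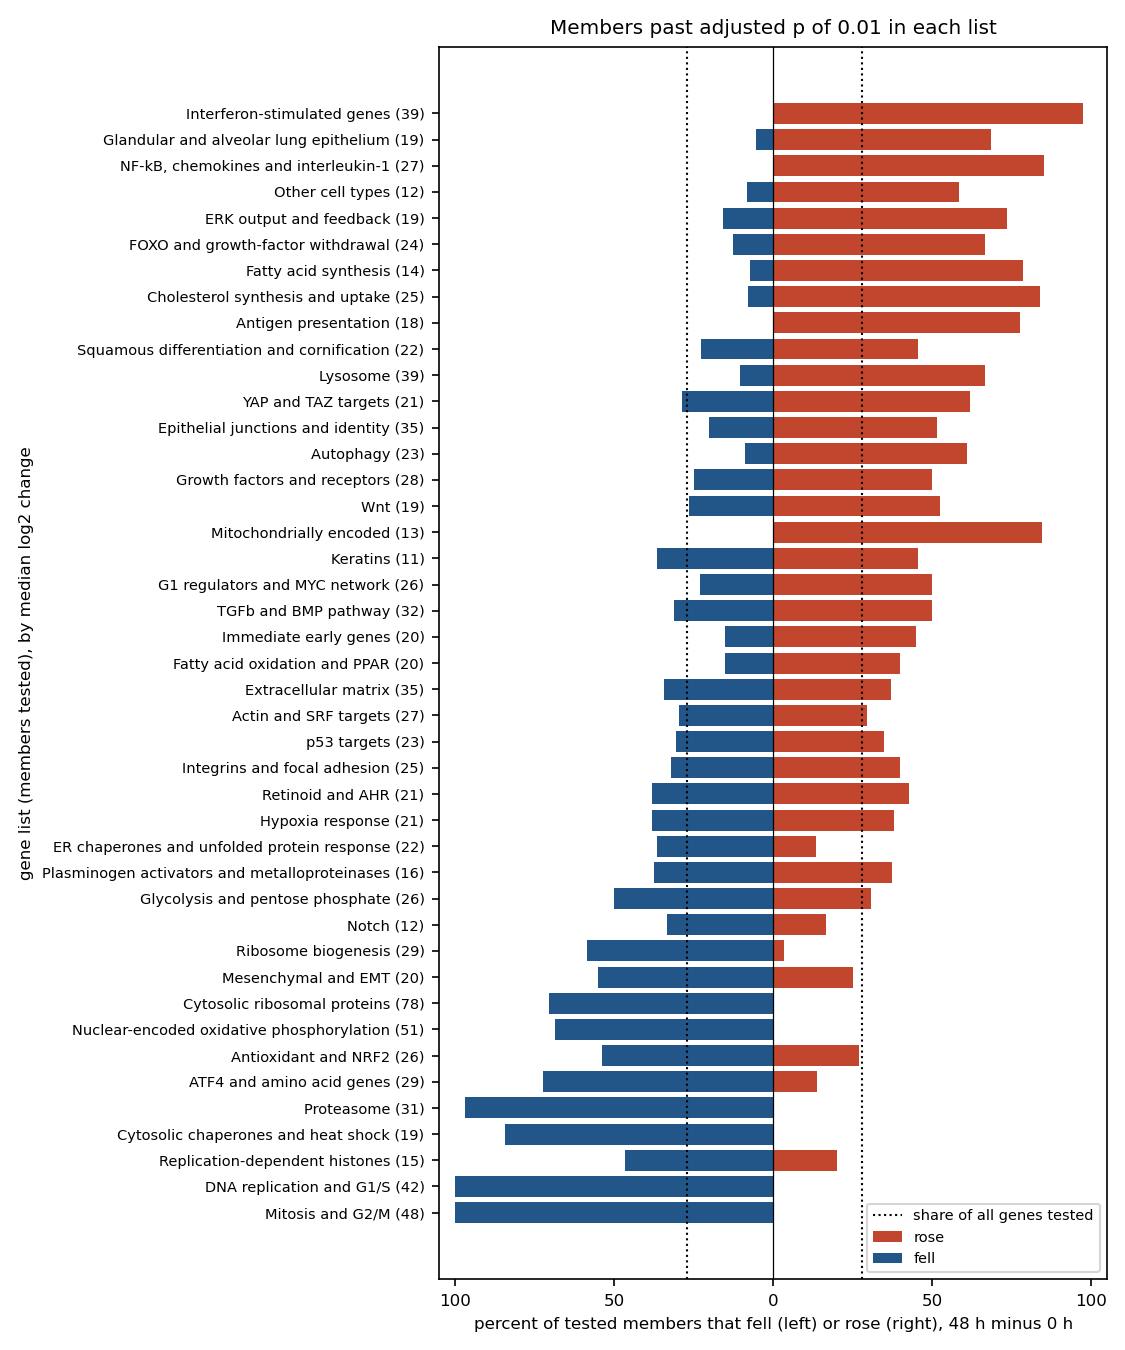
Percent of the tested members of each of 43 gene lists that fell (blue, left) or rose (red, right) from 0 h to 48 h, ordered by the median log2 change. The dotted lines give the share of all tested genes that fell (27.1%) or rose (28%). Mitosis and DNA replication fill the left side completely, and interferon-stimulated genes fill nearly all of the right side.

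The lists moved at different times. DNA replication genes lost most between 8 h and 24 h, with list medians on the log2 scale of -0.19, -1.07 and -0.33 in the 3 consecutive intervals. Mitosis genes lost most between 24 h and 48 h, with medians of -0.46, -0.23 and -1.55. Interferon-stimulated genes stayed level to 8 h (median 0.02) and gained a median of 1.52 between 24 h and 48 h. Cholesterol synthesis genes went up in the intervals to 8 h and to 24 h, by medians of 0.63 and 0.81, and then came down by a median log2 change of -0.64. The medians of all genes tested stayed within 0.01 of 0 in every interval, which the scaling of library sizes (TMM) largely sets in advance. With the reference gene scaling they were 0.11, -0.03 and 0.345 in the 3 intervals.

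**Figure D3:**
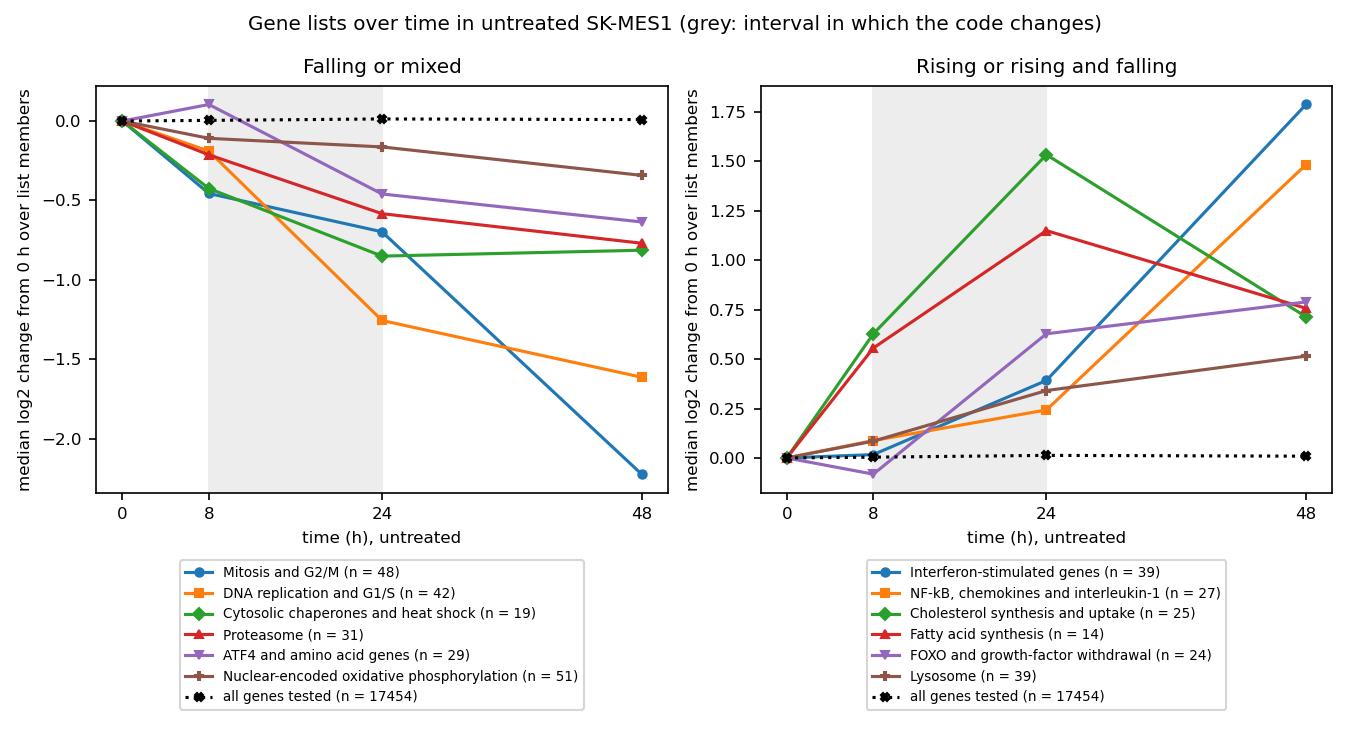
Median log2 change from 0 h over the tested members of 12 gene lists and over all genes (dotted black) at 0, 8, 24 and 48 h in untreated cells. The grey band is the interval in which the code changes. Mitosis genes drop mainly after 24 h, interferon and NF-κB genes rise mainly after 24 h, and both lipid synthesis lists peak at 24 h.

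Cell cycle genes gave the most uniform change. CCNA2, the cyclin that carries cells through S phase and into mitosis, stood at 75.8, 92.4 and 77.4 TPM at 0 h and at 4.66, 4.64 and 4.87 TPM at 48 h. The 0 h libraries were all far above the 48 h libraries, and CCNA2 was the most strongly falling member of the mitosis list (log2 change -4.20 ± 0.36 SE, adjusted p = 1.95e-09). CCNB1, the mitotic cyclin and the most abundant member, had 299, 341 and 312 TPM at 0 h and 73.2, 70.3 and 72.1 TPM at 48 h. BIRC5, a subunit of the chromosomal passenger complex, fell 7.92-fold, from 178 ± 3.83 to 24.7 ± 1.26 TPM. ANLN, which organises the cleavage furrow, fell from 240 ± 21.4 to 36.4 ± 1.82 TPM. All 48 members also fell from 24 h to 48 h within the code and 42 fell from 0 h to 8 h, and the within-code sum passed for all 48. Summed over the list, the level was 4580 to 5067 TPM at 0 h, 3562 to 3655 TPM at 8 h, 2944 to 3228 TPM at 24 h and 1111 to 1138 TPM at 48 h.

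The 12 largest within-code sums among genes that fell in both codes included those of PIF1, a DNA helicase, HMMR, a spindle-associated hyaluronan receptor, NEK2, a kinase of centrosome separation, and PIMREG, a mitotic regulator. NEK2 went from 89.1 ± 7.06 to 14.6 ± 0.61 TPM and PIMREG from 102 ± 3.93 to 18.3 ± 1.60 TPM. PIF1 fell from 31.4 ± 1.47 to 3.90 ± 0.16 TPM and HMMR from 71.4 ± 7.43 to 11.9 ± 0.67 TPM. FAM72B, FAM72C and FAM72D were also among them, with log2 changes of -2.75, -2.94 and -2.89, but these near-identical copies share reads and their separate values are uncertain.

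The DNA replication list holds the helicase, polymerase and nucleotide genes of S phase. RRM2, the small subunit of ribonucleotide reductase and the most abundant member, stood at 310, 315 and 311 TPM at 0 h and at 51.0, 51.8 and 51.5 TPM at 48 h. The groups did not overlap and RRM2 fell 6.59-fold (log2 change -2.72 ± 0.05 SE, adjusted p = 2.41e-20). TK1, thymidine kinase, fell from 243 ± 22.7 to 52.6 ± 1.48 TPM, and GINS4, part of the replicative helicase, from 28.4 ± 0.92 to 7.20 ± 0.44 TPM. Of the 42 genes, 21 fell from 0 h to 8 h and 23 from 24 h to 48 h, and the within-code sum passed in the same direction for 27. In the interval from 8 h to 24 h, in which the code changes, 41 of the 42 fell, compared with 16.8% of all genes.

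The promoters of these genes were examined in RefSeq windows of 300 bases (250 before and 50 after the annotated start, build GRCh38.p14), which were at hand for 12491 tested genes. The letters TTTGAA, on either strand, spell the cell cycle homology region, the contact of the repressor complex, and CCAAT the box next to it. TTTGAA was found in 29 of 42 mitosis promoters (69.0%) against 10.3% of all windows, and CCAAT in 30 of 42 (71.4%) against 36.2%. An E2F site, spelled TTTCCCGC or TTTGGCGC, was found in 20 of 36 replication promoters (55.6%) against 3.4% of all windows, and in 1 of the 42 mitosis promoters. Within the mitosis list, the 29 members with TTTGAA and the 13 without had medians of -2.29 and -2.19. Outside the list, 511 genes held both TTTGAA and CCAAT, and 43.1% of them fell, compared with 28.9% of the 11938 genes without the pair. Of 409 other genes with an E2F site, 40.3% fell, compared with 29.1% of those without.

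The following stretches of 130 bases end at the base before the annotated start. They are shown because these 3 mitosis genes had the largest falls among those with both motifs in the stretch, outside a chromosome that was left out of the choice. The capitals mark TTTGAA and CCAAT or their reverse complements TTCAAA and ATTGG. CDCA8, HMMR and KIF4A lie on the plus strand at chr1:37692386-37692515, chr5:163460502-163460631 and chrX:70289974-70290103. In CDCA8 the TTTGAA and the neighbouring ATTGG share a base.
CDCA8: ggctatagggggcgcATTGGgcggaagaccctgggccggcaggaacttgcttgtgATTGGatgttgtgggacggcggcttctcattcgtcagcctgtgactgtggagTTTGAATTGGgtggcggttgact
HMMR: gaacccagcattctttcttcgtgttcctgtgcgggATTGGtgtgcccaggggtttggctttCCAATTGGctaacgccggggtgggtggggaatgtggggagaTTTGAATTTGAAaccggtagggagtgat
KIF4A: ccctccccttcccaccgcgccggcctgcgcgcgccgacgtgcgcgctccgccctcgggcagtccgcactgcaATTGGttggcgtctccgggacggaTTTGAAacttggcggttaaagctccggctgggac

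In all 3 a marked TTTGAA begins within 34 bases of the start, with a CCAAT box further upstream. For replication, the stretches of TYMS, the thymidylate synthase, E2F2, an E2F factor itself, and UHRF1, a factor that copies DNA methylation, are shown by the same rule, with the E2F site in capitals. They lie at chr18:657523-657652 (plus strand), chr1:23531234-23531363 (minus strand) and chr19:4909371-4909500 (plus strand).
TYMS: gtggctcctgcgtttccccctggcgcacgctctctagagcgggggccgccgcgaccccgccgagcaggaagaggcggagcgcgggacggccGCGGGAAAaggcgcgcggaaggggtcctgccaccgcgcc
E2F2: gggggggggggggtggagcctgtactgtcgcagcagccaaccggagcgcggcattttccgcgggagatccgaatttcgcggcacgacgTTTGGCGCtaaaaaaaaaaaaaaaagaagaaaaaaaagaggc
UHRF1: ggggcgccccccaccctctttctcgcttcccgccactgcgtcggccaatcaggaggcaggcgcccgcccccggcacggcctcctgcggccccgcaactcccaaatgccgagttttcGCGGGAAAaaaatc

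Each of these holds a single E2F match, 39, 42 and 14 bases before the start, and the log2 changes of TYMS, E2F2 and UHRF1 were -2.04, -2.03 and -1.83. A match describes the letters and does not show binding.

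Regulators of the G1 phase did not move as a block, with 13 of 26 rising and 6 falling. CDKN1A, the inhibitor p21, stood at 172, 154 and 164 TPM at 0 h and at 48.9, 48.7 and 47.5 TPM at 48 h, without overlap, and fell. CDKN1C (p57) rose from 3.17 ± 0.80 to 12.5 ± 1.12 TPM, while CDKN2C (p18) fell from 62.5 ± 0.32 to 18.8 ± 0.39 TPM. MXD4, a partner that opposes MYC, rose from 25.2 ± 3.42 to 57.0 ± 3.19 TPM, and MXD3, of the same family, fell from 24.9 ± 1.89 to 8.46 ± 0.62 TPM. MYCN rose to 1.02 ± 0.11 TPM from 0.0041 ± 0.0072 TPM, a level so near 0 that its fitted change is no measure of size. CCND1, the G1 cyclin, had overlapping values of 226, 181 and 190 TPM at 0 h and 205, 182 and 181 TPM at 48 h (log2 change -0.12 ± 0.04 SE, adjusted p = 0.0107 with limma voom, not passed). It rose within both codes (log2 changes of 0.16 and 0.98) and fell by 1.26 on the log2 scale between 8 h and 24 h.

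Replication-dependent histone transcripts, most of which lack the poly(A) tail, were near the detection limit, and 15 of 28 were tested. Of these, 3 rose and 7 fell, at a median of -1.24, and with at least 10 counts asked of all 24 libraries 4 rose and 2 fell. H1-2, the linker histone that made up most of the list, rose from 55.7 ± 2.50 to 140 ± 8.25 TPM, and the core histone gene H3C2 fell from 2.56 ± 0.37 to 0.49 ± 0.19 TPM. The summed share of the list went from 0.00996% to 0.0177% of all TPM (exact permutation test, two-sided, p = 0.1, the smallest that 3 against 3 libraries allow).

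Interferon-stimulated genes, which cells switch on to resist viruses, rose late. MX1, a GTPase that blocks viral replication, had 49.6, 51.4 and 49.5 TPM at 0 h and 317, 295 and 266 TPM at 48 h. The groups were far apart, with a 5.84-fold ratio of mean TPM. In the fit of gene counts MX1 rose 11.4-fold (log2 change 3.51 ± 0.07 SE, adjusted p = 2.46e-19 with limma voom), and with counts scaled for transcript length its log2 change was 2.47. At 8 h and 24 h it was still at 47.1 and 53.3 TPM on average, and from 24 h to 48 h, within a code, its counts rose by 3.05 on the log2 scale. OAS2, a sensor of double-stranded RNA, went from 6.03 ± 0.23 to 57.8 ± 5.0 TPM and IFI44L from 12.4 ± 1.20 to 114 ± 8.96 TPM. IFI27, the most abundant member, had 415, 385 and 431 TPM at 0 h and 1737, 1538 and 1494 TPM at 48 h. All 39 members rose from 24 h to 48 h, while 8 rose and 6 fell from 0 h to 8 h. The member that did not pass over 48 h was IFIH1, with a log2 change of 0.30 (adjusted p = 0.315). HELZ2, a helicase coactivator that interferon induces, rose in both codes, from 10.8 ± 0.72 to 69.7 ± 10.4 TPM.

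In the promoter windows of these genes, the core of the interferon-stimulated response element, spelled TTTCNNTTT and looked for after the values had been seen, was found in 23 of 31 (74.2%) against 7.6% of all windows. Outside the list, 30.1% of 927 genes with the core rose, compared with 28.8% of 11533 without it. Stretches of 130 bases are given from the 3 members with the largest rises that hold the core in the stretch, with the same chromosome left out and the core in capitals. IFI44L lies at chr1:78620318-78620447 (plus strand), EPSTI1 at chr13:42992242-42992371 (minus strand) and XAF1 at chr17:6755916-6756045 (plus strand).
IFI44L: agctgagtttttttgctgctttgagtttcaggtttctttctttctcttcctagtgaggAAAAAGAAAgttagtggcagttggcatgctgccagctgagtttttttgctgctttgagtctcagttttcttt
EPSTI1: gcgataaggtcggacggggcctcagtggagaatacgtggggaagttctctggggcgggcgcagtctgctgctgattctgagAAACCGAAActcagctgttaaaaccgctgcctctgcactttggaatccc
XAF1: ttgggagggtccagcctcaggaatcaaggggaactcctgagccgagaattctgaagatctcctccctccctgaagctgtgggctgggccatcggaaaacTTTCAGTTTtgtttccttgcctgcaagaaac

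The cores begin 72, 49 and 31 bases before the start, and the log2 changes of these genes were 3.13, 3.08 and 2.79. Genes of antigen presentation also rose over 48 h, 14 of 18 tested, at a median of 0.71, but less uniformly in the late interval. From 8 h to 24 h, where the code changes, 7 rose and 0 fell, and from 24 h to 48 h 8 rose and 2 fell. The within-code sum passed upwards for 7 and downwards for 0, at a median of 0.35. B2M, the light chain of class I molecules, went from 1156 to 1799 TPM on average, and PSMB9, an immunoproteasome subunit, from 2.29 ± 0.17 to 6.13 ± 0.16 TPM. HLA-F rose from 8.49 ± 1.72 to 24.4 ± 0.45 TPM, and as an HLA gene it shares reads with close relatives.

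Inflammatory mediators under NF-κB rose in the same late interval. SOD2, the mitochondrial superoxide dismutase and the most abundant of the list, had 105, 103 and 105 TPM at 0 h and 1496, 1619 and 1495 TPM at 48 h. CXCL8, the chemokine interleukin-8, had 1.34, 1.21 and 1.40 TPM at 0 h and 34.0, 43.9 and 35.3 TPM at 48 h. CXCL1, a related chemokine, had 1.75, 2.49 and 2.48 TPM at 0 h and 58.4, 73.4 and 63.1 TPM at 48 h. For these genes the 48 h libraries were all at least several times above the 0 h libraries, with changes in gene counts of 9.88-fold (SOD2), 25.7-fold (CXCL8) and 30.5-fold (CXCL1). For SOD2 the ratio of mean TPM was larger, 14.7-fold. CXCL8 and CXCL1 averaged 1.89 and 3.55 TPM at 24 h, and they rose by 4.25 and 4.23 on the log2 scale from 24 h to 48 h. Of the 27 tested members, 23 rose from 24 h to 48 h and 0 fell, whereas 11 rose and 6 fell from 0 h to 8 h.

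The 12 largest rises among protein-coding genes of at least 10 TPM were those of C4B, CHI3L1, CP, MGP, SLC14A1, CXCL1, C3, AGT, A2M, CXCL8, MLXIPL and RANBP3L. C3, the central complement component, had 4.51, 4.75 and 5.06 TPM at 0 h and 152, 160 and 142 TPM at 48 h. It rose 29.9-fold (log2 change 4.90 ± 0.08 SE, adjusted p = 9.92e-21). MGP, a matrix protein that inhibits calcification, had 5.19, 6.94 and 7.39 TPM at 0 h and 404, 413 and 384 TPM at 48 h. A2M, the protease trap α2-macroglobulin, went from 6.84 ± 0.31 to 185 ± 4.09 TPM, and the copper oxidase CP, ceruloplasmin, from 0.45 ± 0.19 to 20.3 ± 1.06 TPM. CHI3L1, a chitinase-like secreted protein, rose from 0.40 ± 0.08 to 23.8 ± 0.99 TPM and AGT, angiotensinogen, from 0.39 ± 0.05 to 11.5 ± 0.50 TPM. The others were SLC14A1, a urea transporter (0.43 ± 0.16 to 17.7 ± 1.66 TPM), MLXIPL, a glucose-responsive transcription factor (0.56 ± 0.09 to 15.6 ± 0.49 TPM), and RANBP3L (1.52 ± 0.52 to 28.9 ± 2.25 TPM). C4B, another complement gene, had a fitted log2 change of 6.57 ± 0.79 SE (35.5-fold by mean TPM), but it shares reads with its near-identical copy and reached 12.9 ± 2.27 TPM. A2M, CHI3L1, AGT and RANBP3L rose in both codes, and MGP, CP, SLC14A1, CXCL1, C3, CXCL8 and MLXIPL rose from 24 h to 48 h without passing from 0 h to 8 h.

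The genes with the largest within-code sums among those rising in both codes were of different kinds. GDF15, a stress-induced hormone of the TGFβ family, had 48.2, 39.0 and 52.3 TPM at 0 h and 582, 585 and 525 TPM at 48 h. AKR1B10, an aldo-keto reductase, had means of 17, 104, 49.3 and 154 TPM in the order of the time points, so that it rose within each code and fell between 8 h and 24 h. ASS1, which makes the precursor of arginine, rose from 2.97 ± 0.19 to 40.5 ± 0.41 TPM. RARRES2, the chemoattractant chemerin, rose to 11.6 ± 0.81 TPM, and TNFSF15, a cytokine of the TNF family, to 17.6 ± 0.86 TPM. SYT12, a synaptotagmin, rose to 31.0 ± 1.78 TPM, RRAD, a small GTPase, to 73.6 ± 3.09 TPM, and KCNJ2, an inward rectifier potassium channel, to 10.2 ± 0.45 TPM.

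**Figure D4:**
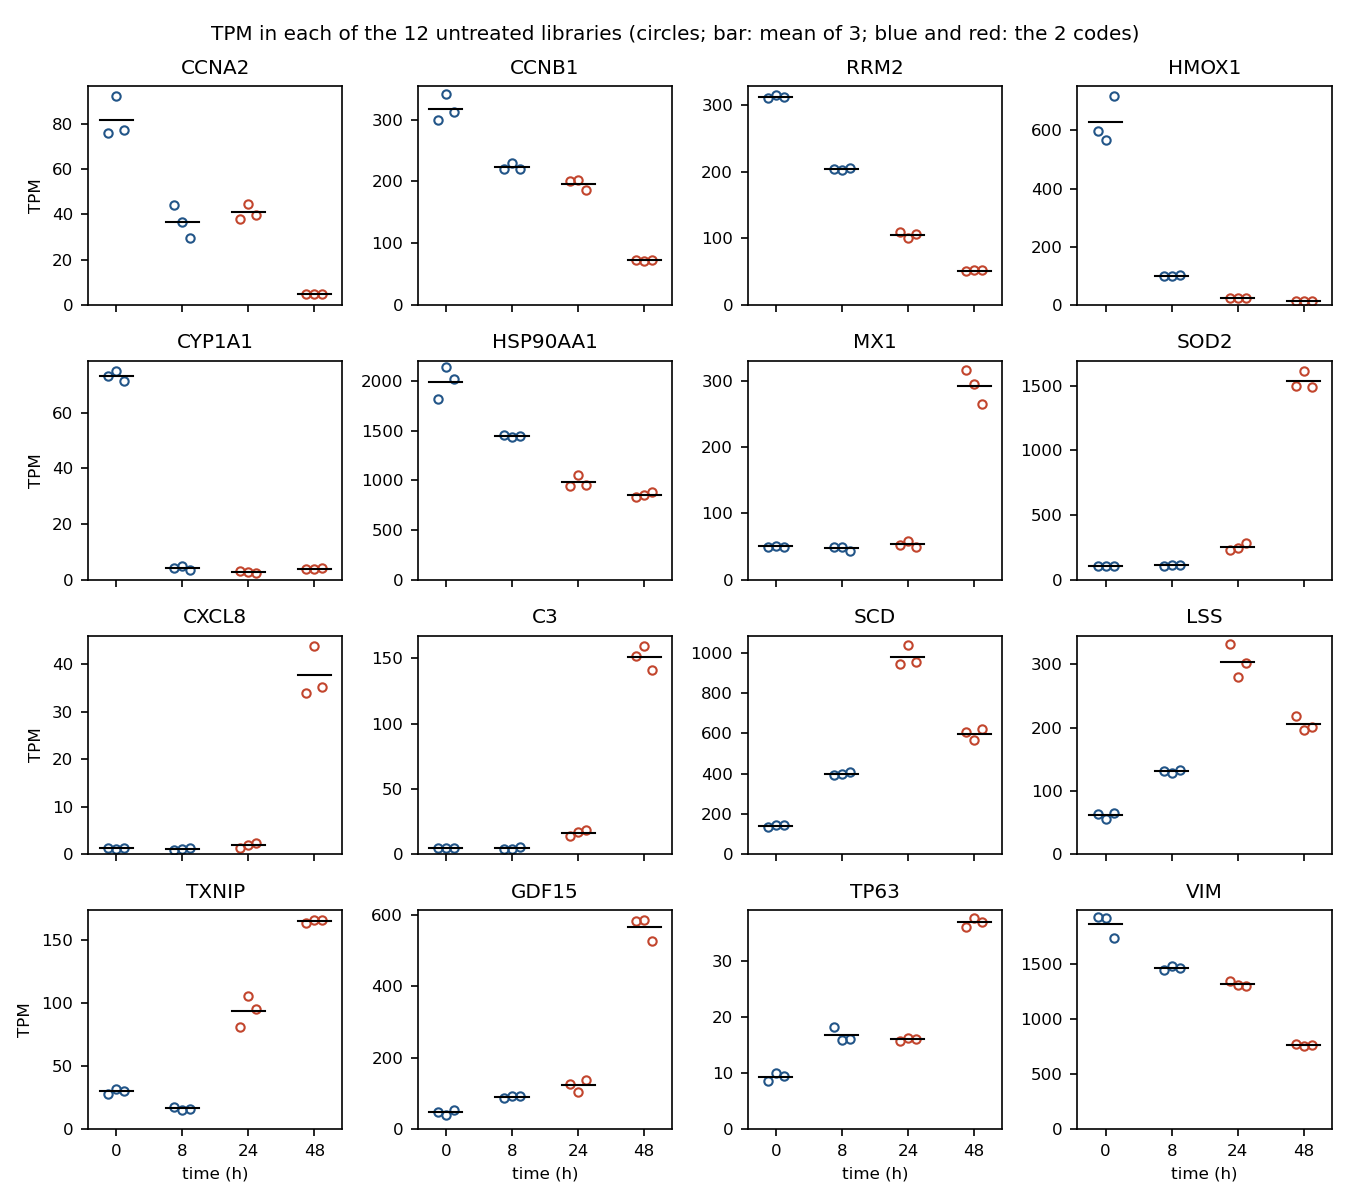
TPM of 16 genes in each of the 12 untreated libraries (circles), with the mean of 3 replicates as a bar, at 0, 8, 24 and 48 h. Blue circles share a code and red circles share the other. HMOX1 and CYP1A1 had fallen by 8 h. CCNA2 was lower at 8 h than at 0 h, at a like level at 24 h, and lower again at 48 h. MX1, CXCL8 and C3 rose mainly after 24 h, and SCD and LSS peaked at 24 h.

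The 12 largest falls among protein-coding genes of at least 10 TPM were those of SERPINB2, HMOX1, CGB5, CGB8, DHRS9, HSPA6, CYP1A1, CCNA2, KRT15, NPTX1, PTHLH and CHAC1, genes of different kinds. HMOX1, the haem-degrading enzyme, had 598, 568 and 718 TPM at 0 h and 14.1, 12.8 and 13.4 TPM at 48 h. It was 49.2-fold lower at 48 h (log2 change -5.62 ± 0.11 SE, adjusted p = 7.95e-20), with -2.69 of this by 8 h within a code and a further -0.82 from 24 h to 48 h. SERPINB2, the plasminogen activator inhibitor PAI-2, had 121, 131 and 105 TPM at 0 h and 2.46, 2.27 and 2.62 TPM at 48 h, with 7.59 TPM already at 8 h. CYP1A1, the hydrocarbon-metabolising enzyme under the aryl hydrocarbon receptor, had 73.3, 75.1 and 71.4 TPM at 0 h and 3.87, 3.71 and 4.12 TPM at 48 h. By 8 h CYP1A1 was at 4.16 TPM, and from 24 h to 48 h it rose slightly (log2 change 0.50). The receptor itself, AHR, moved the other way, from 56.6 ± 6.05 to 211 ± 4.85 TPM. DHRS9, a retinol dehydrogenase, fell from 17.1 ± 1.49 to 0.74 ± 0.19 TPM and HSPA6, a strictly stress-induced HSP70, from 14.4 ± 2.98 to 0.59 ± 0.13 TPM.

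Chaperone and proteasome genes fell at smaller scale. HSP90AA1, the inducible HSP90, had 1827, 2143 and 2027 TPM at 0 h and 834, 851 and 882 TPM at 48 h. DNAJB1, an HSP40 cochaperone, fell from 275 ± 10.7 to 115 ± 1.19 TPM, and HSPA8, the constitutive HSP70, from 2064 to 1421 TPM on average. Of the 19 chaperone genes, 16 fell and 15 had already fallen at 8 h, and the 3 that did not pass were HSPA4 and HSPB1 (log2 changes of -0.34 and -0.36) and HSPA1A, which was near 0 TPM at both times and shares reads with its near-identical copy. Among the 31 proteasome genes 30 fell, at a median of -0.77, and the within-code sum passed for 26. PSMD2, a base subunit and the most abundant, had 750, 751 and 766 TPM at 0 h and 323, 314 and 332 TPM at 48 h.

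The antioxidant genes under NRF2 split, with 7 of 26 rising and 14 falling. OSGIN1 fell from 175 ± 13.4 to 35.2 ± 1.45 TPM and GCLM, which limits glutathione synthesis, from 227 ± 18.0 to 73.0 ± 4.54 TPM. In contrast AKR1C1, an aldo-keto reductase, rose from 473, 465 and 542 TPM to 2492, 2434 and 2398 TPM, and its close relative AKR1C2 from 73.3 ± 9.65 to 485 ± 4.36 TPM, with reads that the counting may have split between them. FTL, the ferritin light chain and the most abundant member, rose by 0.48 ± 0.09 on the log2 scale, while its within-code sum of 0.26 did not pass.

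Amino acid supply and the ATF4 response fell in 21 of 29 genes, at a median of -0.64. SLC7A5, the leucine transporter, had 113, 98.1 and 111 TPM at 0 h and 24.6, 23.7 and 22.9 TPM at 48 h. MTHFD2, of mitochondrial folate metabolism, fell from 161 ± 11.6 to 56.3 ± 1.59 TPM, and CHAC1, which degrades glutathione, from 16.4 ± 2.06 to 2.29 ± 1.60 TPM. The exception among abundant members was SLC38A2, a glutamine transporter that rose from 204, 223 and 215 TPM to 706, 688 and 716 TPM, in both codes. NUPR1, a stress-induced chromatin protein, also rose, from 2.87 ± 0.76 to 12.2 ± 0.73 TPM. By interval, 13 members rose and 10 fell from 0 h to 8 h, and 4 rose and 20 fell between 8 h and 24 h, where the code changes. From 24 h to 48 h 5 rose and 9 fell. The within-code sum of this list passed upwards for 4 and downwards for 11, at a median of -0.07. The chaperones of the endoplasmic reticulum changed little, with 3 of 22 rising, 8 falling and a median of -0.045, and the within-code sum passed upwards for 5 and downwards for 3. XBP1, a regulator of this compartment, rose from 55.0 ± 4.66 to 75.9 ± 1.35 TPM, and PPIB, the most abundant member, did not pass (821 ± 14.5 and 830 ± 9.59 TPM).

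Genes of cholesterol synthesis and uptake rose to 24 h and then fell back in part. LSS, which closes the sterol ring, had 64.0, 55.6 and 64.8 TPM at 0 h, 131 TPM on average at 8 h, 304 TPM at 24 h and 218, 196 and 201 TPM at 48 h. All 48 h libraries were above all 0 h libraries, and LSS rose 3.17-fold. MSMO1, a C4 demethylase, went from 55.6 ± 6.5 to 182 ± 6.43 TPM and TM7SF2, a sterol reductase, from 4.96 ± 0.34 to 33.0 ± 2.78 TPM. FDPS, which makes farnesyl diphosphate and was the most abundant member, had 223 ± 8.26 TPM at 0 h, 670 TPM at 24 h and 389 ± 15.6 TPM at 48 h. Of the 25 genes, 22 rose from 0 h to 8 h and 0 fell, and 21 fell from 24 h to 48 h with 0 rising, both within a code. The within-code sum of the list passed upwards for 3 genes (TM7SF2 among them) and downwards for 6, FDPS included (log2 change -0.44, adjusted p = 2.61e-05 with limma voom), and had a median of -0.01. EBP and PMVK fell by 0.28 and 0.52 on the log2 scale over 48 h, with EBP at 0.13 under the reference gene scaling.

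Fatty acid synthesis had the same course. SCD, the stearoyl-CoA desaturase, had 135, 147 and 146 TPM at 0 h and 608, 568 and 621 TPM at 48 h, with 981 TPM on average at 24 h. FADS2, which desaturates polyunsaturated fatty acids, went from 51.8 ± 3.13 to 227 ± 11.4 TPM with 360 TPM at 24 h. For both genes the early rise exceeded the late fall, and their within-code sums passed (0.67 and 0.90). ACSS2, acetyl-CoA synthetase, rose from 23.9 ± 0.95 to 61.5 ± 2.45 TPM. Genes of fatty acid oxidation were mixed, 8 of 20 rising and 3 falling. PPARGC1A, a coactivator of mitochondrial genes, rose from 0.77 ± 0.45 to 3.56 ± 0.64 TPM, and PDK4, which holds back pyruvate oxidation, from 5.12 ± 0.38 to 10.6 ± 0.33 TPM.

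Glycolysis leaned downwards, with 13 of 26 genes falling and 8 rising. With the reference gene scaling 7 fell and 13 rose, at a median of 0.27 against 0.42 for all genes. SLC2A1, the glucose transporter GLUT1, had 685, 585 and 667 TPM at 0 h and 255, 250 and 249 TPM at 48 h. LDHA, lactate dehydrogenase, had 1599, 1799 and 1648 TPM at 0 h and 830, 891 and 873 TPM at 48 h. SLC2A3, the transporter GLUT3, rose instead, from 13.2 ± 1.70 to 44 ± 1.21 TPM. GAPDH, the most abundant of the list and often used as a reference, fell by 0.54 ± 0.07 on the log2 scale (6059 to 4455 TPM on average), nearly all of it from 24 h to 48 h. Hypoxia genes were divided, 8 of 21 rising and 8 falling. VEGFA, the vascular growth factor, had 51.8, 47.7 and 51.7 TPM at 0 h and 223, 220 and 230 TPM at 48 h, whereas STC2, a secreted glycoprotein, fell from 380 ± 36.3 TPM to 69.1 ± 2.66 TPM after a low of 27.5 TPM at 24 h.

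Mitochondrial genes of nuclear and mitochondrial origin moved apart. Of 51 nuclear-encoded subunits of oxidative phosphorylation 35 fell and 0 rose, at a median of -0.34, and ATP5MC1, a subunit of the ATP synthase ring, had the largest change (308 ± 11.5 to 178 ± 5.14 TPM). With the reference gene scaling 15 of the 51 rose and 3 fell, at a median of 0.07 against 0.42 for all genes. Of the 13 mitochondrially encoded genes 11 rose and 0 fell, at a median of 0.36, and the within-code sum passed upwards for 4 at a median of 0.22. The 0 h libraries of the arms, between which 0 of the 13 passed, differed by a median of 0.22 as well, and with the TGFβ arm at 0 h as baseline 5 rose and 1 fell, at a median of 0.14. The share of all TPM from these 13 genes was 8.81%, 8.77% and 9.64% at 0 h and 12.6%, 13.3% and 13.2% at 48 h, without overlap (exact permutation test, two-sided, p = 0.1, the smallest possible). MT-CO2, a cytochrome oxidase subunit, rose from 15798 to 26443 TPM on average. The share of TPM from 78 ribosomal protein genes moved the other way, from 11.4% to 9.45% on average, and 55 of these genes fell with 0 rising. With the reference gene scaling 11 fell and 27 rose, at a median of 0.07 against 0.42 for all genes. The ribosome biogenesis list fell in 17 of 29 genes and rose in 1 (8 and 11 with that scaling), with DKC1, the snoRNA-guided pseudouridine synthase, going from 321 ± 9.47 to 186 ± 5.39 TPM. In that list 14 genes rose again from 24 h to 48 h, and the within-code sum passed upwards for 11 and downwards for 4, at a median of 0.145 compared with -0.27 over the whole 48 h.

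Genes that FOXO factors and growth factor withdrawal are known to raise rose in 16 of 24 cases and fell in 3, at a median of 0.79. The within-code sum of the list had no such lean, passing upwards for 7 and downwards for 7 at a median of -0.07, and from 0 h to 8 h 7 rose and 9 fell. TXNIP, which restrains glucose uptake, had 27.9, 31.7 and 30.2 TPM at 0 h and 163, 166 and 165 TPM at 48 h. It first fell from 0 h to 8 h (log2 change -0.92) and rose later, so its within-code sum of -0.15 did not pass. DEPP1, a FOXO target in autophagy, rose from 20.5 ± 0.69 to 99.2 ± 4.38 TPM, and KLHL24, a ubiquitin ligase adaptor, from 10.1 ± 1.41 to 29.7 ± 0.59 TPM, with a within-code sum of -0.009. CDKN1B, the inhibitor p27, fell from 42.3 ± 1.69 to 35.2 ± 1.32 TPM, a fall that the reference gene scaling turned to 0.04 on the log2 scale. Between 8 h and 24 h, where the code changes, 23 of the 24 genes rose, compared with 16.2% of all genes.

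The ERK output list leaned upwards without added growth factor, with 14 of 19 genes rising and 3 falling. The within-code sum passed upwards for 16 and downwards for 2, and upwards for all 14 that rose over 48 h. EPHA2, a receptor tyrosine kinase, went from 22.7 ± 2.85 to 99.2 ± 4.30 TPM, with 74.8 TPM at 8 h. The feedback inhibitors DUSP4, a phosphatase, and SPRY4 rose from 11.3 ± 1.15 to 44.1 ± 1.11 TPM and from 1.85 ± 0.42 to 8.12 ± 0.06 TPM. FOSL1, an AP-1 subunit, and EREG, an EGF receptor ligand, fell by 1.13 and 0.98 on the log2 scale, and the within-code sum of FOSL1 was 0.27 and did not pass. Among immediate early genes 9 of 20 rose and 3 fell (3 and 5 in the within-code sum), with JUNB rising from 14.2 ± 1.96 to 35.8 ± 1.76 TPM and EGR1 falling from 20.1 ± 0.65 to 11 ± 0.47 TPM. Targets of p53 were mixed, 8 of 23 rising and 7 falling. PLK3, a stress kinase, rose from 4.70 ± 0.54 to 17 ± 1.70 TPM, and DDB2, of DNA damage recognition, fell from 57.1 ± 0.74 to 16.1 ± 0.15 TPM.

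Targets of YAP and TAZ, coactivators that sense cell shape and density, rose in 13 of 21 cases and fell in 6. CCN1, a matricellular protein, went from 14.9 ± 1.20 to 75.0 ± 1.42 TPM and ANKRD1 from 6.23 ± 0.35 to 38.0 ± 0.82 TPM, each rising in both codes. AXL, a receptor tyrosine kinase, fell from 164 ± 10.2 to 44.2 ± 1.46 TPM and F3, tissue factor, from 34.5 ± 1.60 to 11 ± 0.51 TPM.

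Markers of the squamous state did not move together, with 10 of 22 tested genes rising and 5 falling, and 21 of the 43 listed genes were too low to be tested. S100A2, a calcium-binding protein of squamous cells and the most abundant, had 2792, 2659 and 2880 TPM at 0 h and 506, 513 and 511 TPM at 48 h. TP63 rose 3.83-fold, in both codes, while the serpin SERPINB5 fell from 22.1 ± 2.51 to 11.3 ± 0.21 TPM. KRT15, a basal keratin, fell from 18.0 ± 0.99 to 1.48 ± 0.31 TPM. Of 11 tested keratins 5 rose and 4 fell. KRT8 and KRT18, the keratin pair of simple epithelia, rose from 426 ± 19.4 to 947 ± 19.2 TPM and from 420 ± 12 to 975 ± 14.7 TPM, mostly from 24 h to 48 h, while KRT7 fell from 524 ± 36.7 to 223 ± 9.38 TPM. LCN2, an antimicrobial protein of stressed epithelia, rose from 0.47 ± 0.02 to 8.17 ± 0.44 TPM.

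Junction genes rose in 18 of 35 cases and fell in 7. JUP, plakoglobin, went from 41.1 ± 3.61 to 176 ± 9.77 TPM, SPINT1, a membrane protease inhibitor, from 9.61 ± 0.75 to 45.7 ± 0.915 TPM and TJP3, of tight junctions, from 0.81 ± 0.06 to 5.77 ± 0.62 TPM. CDH1, an epithelial marker, had 1.38, 1.15 and 1.64 TPM at 0 h and 5.74, 4.86 and 5.06 TPM at 48 h. The junction genes DSG2 and PKP1 fell, from 141 ± 10.2 to 78.4 ± 2.44 TPM and from 35.0 ± 1.56 to 16.1 ± 0.44 TPM. Mesenchymal genes leaned downwards, 11 of 20 falling and 5 rising. With the reference gene scaling 8 fell and 8 rose, at a median of 0.13 against 0.42 for all genes. VIM, the intermediate filament vimentin, had 1929, 1915 and 1733 TPM at 0 h and 770, 755 and 766 TPM at 48 h, and SNAI1, a repressor of epithelial genes, fell from 2.84 ± 0.11 to 1.35 ± 0.10 TPM. S100A4 rose, from 429 ± 42.4 to 1125 TPM on average.

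Genes of glandular and alveolar lung epithelium rose in 13 of 19 tested cases and fell in 1. SLPI, a secreted protease inhibitor, went from 4.97 ± 1.05 to 73.7 ± 4.44 TPM and WFDC2, another, from 70.3 ± 3.86 to 219 ± 6.86 TPM. MUC5AC, a gel-forming mucin, fell from 8.66 ± 1.96 to 4.19 ± 0.68 TPM. The lung factor NKX2-1 rose from 0.12 ± 0.04 to 0.64 ± 0.05 TPM, with 1.06 TPM at 24 h. The other alveolar and club cell markers looked at did not rise with it. SFTPB had overlapping values of 0.24, 0.30 and 0.32 TPM at 0 h and 0.27, 0.30 and 0.29 TPM at 48 h. SFTPC and SCGB1A1 reached at most 0.0923 and 0.1175 TPM in the 6 libraries and were not tested. Some genes that mark other cell types rose as well, 7 of 12 tested with 1 falling. DCN, a proteoglycan of fibroblasts, had 0.57, 0.64 and 0.50 TPM at 0 h and 11.3, 13.4 and 11.9 TPM at 48 h. LUM, PDGFRA and PDGFRB, of the same cells, rose by log2 changes of 2.32, 1.88 and 1.29, and CD68, of lysosomes and macrophages, fell from 31.2 ± 2.59 to 9.23 ± 1.40 TPM. The summed level of that list was 43.3 to 47.1 TPM at 0 h and 67.3 to 69.2 TPM at 48 h. Of the endothelial markers, PECAM1 rose from 0.87, 0.58 and 1.18 TPM at 0 h to 2.74, 2.59 and 2.87 TPM at 48 h, VWF rose from 0.04 ± 0.02 to 0.20 ± 0.09 TPM and KDR from 0.22 to 0.32 TPM on average. CDH5, which defines endothelium, stayed under 0.1 TPM. CD14, of monocytes, had 0.79, 0.62 and 0.24 TPM at 0 h and 1.29, 2.13 and 1.94 TPM at 48 h, without overlap, and did not pass (adjusted p = 0.0241 with limma voom). CD3E and MS4A1 were at 0 in all 6 libraries. The part of these markers in the other results was not tested.

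Matrix genes split, with 13 of 35 rising and 12 falling. VCAN, a large proteoglycan, rose from 63.8 ± 4.33 to 225 ± 10.4 TPM and LAMB2, a laminin chain, from 53.4 ± 5.41 to 142 ± 10.8 TPM. ITGA6, a laminin-binding integrin, fell from 178 ± 12.3 to 59.9 ± 1.52 TPM. Integrins and focal adhesion genes rose in 10 of 25 cases and fell in 8. Among 16 proteases and inhibitors 6 rose and 6 fell. MMP1, a collagenase, rose from 0.38 ± 0.12 to 8.97 ± 0.83 TPM, TIMP3 from 39.0 ± 1.49 to 223 ± 1.14 TPM and MMP2 from 370 ± 12 to 814 ± 9.16 TPM, while MMP7 fell from 33.0 ± 1.44 to 15.4 ± 0.84 TPM. Actin and SRF targets were balanced, 8 of 27 in each direction, with TPM2, a tropomyosin, rising from 9.35 ± 0.21 to 32.8 ± 0.91 TPM and TAGLN2 falling from 1354 to 866 TPM on average.

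Genes of the TGFβ pathway changed without added ligand. Of 32 genes 16 rose and 10 fell. TGFBI and PMEPA1, which TGFβ is known to induce, fell from 506 ± 15.8 to 212 ± 0.78 TPM and from 56.2 ± 5.34 to 26.5 ± 1.17 TPM, and LTBP1, which stores the ligand, fell from 98.1 ± 0.72 to 41.1 ± 0.69 TPM. The ligand gene TGFB2 rose from 15.6 ± 2.49 to 45.2 ± 1.98 TPM, in both codes. Among growth factors and receptors 14 of 28 rose and 7 fell. EGFR fell from 65.4 ± 0.80 to 34.5 ± 1.84 TPM and IGFBP6, which binds IGF2, from 285 ± 17.1 to 152 ± 1.86 TPM, while PDGFB rose from 2.26 ± 0.19 to 6.82 ± 0.34 TPM. NPTX1, a secreted pentraxin, fell from 30.2 ± 1.96 to 2.55 ± 0.32 TPM and PTHLH, parathyroid hormone-related protein, from 77.5 ± 2.84 to 5.66 ± 0.43 TPM. The chorionic gonadotropin genes CGB5 and CGB8 fell from 55.2 ± 9.78 to 1.27 ± 0.31 TPM and from 123 ± 6.03 to 3.28 ± 0.65 TPM, as near-identical copies with uncertain separate values.

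Lysosomal genes rose in 26 of 39 cases and fell in 4, with a median of 0.515. CTSD, cathepsin D and the most abundant, went from 753 to 1736 TPM on average, GAA, the acid glucosidase, from 43.0 ± 5.02 to 129 ± 7.72 TPM and GRN, progranulin, from 213 ± 28.0 to 520 ± 17.1 TPM. Of the 39 genes 22 rose between 8 h and 24 h, compared with 16.2% of all genes in that interval. The within-code sum passed upwards for 9 of the 39 and downwards for 4. The letters GTCACGTG of the CLEAR element, described in lysosomal genes, stood in 7 of 27 windows (25.9%) against 4.0% of all. Of the 7 members with these letters 57.1% rose, compared with 75% of the 20 without them, at medians of 0.411 and 0.520. Outside the list, 31% of 496 genes with the letters rose, compared with 28.9% of 11968 without them. Autophagy genes rose in 14 of 23 cases and fell in 2, with WIPI1 going from 61.6 ± 3.27 to 140 ± 1.69 TPM. Between 8 h and 24 h, where the code changes, 12 of the 23 rose and 2 fell. Their within-code sum passed upwards for 4 and downwards for 2, beside 16.4% and 14.8% of all genes. The retinoid and AHR list had 9 of 21 genes rising and 8 falling. RARRES1, a retinoid-induced gene, rose from 9.91 ± 1.32 to 88.1 ± 3.58 TPM and CRABP2, which carries retinoic acid, fell from 113 ± 3.92 to 34.0 ± 0.60 TPM. Wnt genes rose in 10 of 19 cases and fell in 5, with WNT10A rising from 1.08 ± 0.33 to 9.89 ± 0.16 TPM and WNT7B falling from 10.2 ± 0.895 to 2.73 ± 0.10 TPM. Of 12 Notch genes 2 rose and 4 fell, among them HES1, from 30.2 ± 1.25 to 12 ± 0.52 TPM.

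In the arm with TGFβ, the change from 0 h to 48 h differed from that of untreated cells for 20.7% of all genes tested. Of the 4889 rising genes 1531 differed between the arms, in 979 of which the change was larger in untreated cells, and of the 4724 falling genes 1156 differed, 711 of them with the larger change in untreated cells. These genes were called by their change in the same untreated libraries, so a larger change in untreated cells is partly built in. The arms also carry different codes at both times, so treatment and code cannot be told apart in this comparison. C3 reached 14.5 ± 2.39 TPM at 48 h in the TGFβ arm, compared with 151 ± 9.14 TPM in untreated cells, and GDF15 reached 89.3 TPM compared with 564 ± 33.8 TPM. The difference (TGFβ arm minus untreated) passed upwards for 10.5% and downwards for 10.2% of all genes. Of the 39 interferon-stimulated genes it passed upwards for 0 and downwards for 34, at a median of -1.31. For the 27 genes of NF-κB, chemokines and interleukin-1 these numbers were 0 and 22, at a median of -1.19. The cell cycle lists went different ways. Of the 42 DNA replication genes it passed upwards for 0 and downwards for 23, at a median of -0.40. Of the 48 mitosis genes, all of which fell in untreated cells, it passed upwards for 11 and downwards for 1, at a median of 0.23. NEK2, PIF1 and PIMREG, which are not in that list, also passed (log2 differences of 0.72, 0.84 and 0.64), whereas its members CCNA2 and HMMR did not (log2 differences of 0.87 ± 0.50 and 0.35 ± 0.17 SE, adjusted p = 0.214 and 0.152 with limma voom).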

How the data were processed

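RNA from SK-MES1 cells with an integrity value of at least 8, per the labels, was sequenced in 24 libraries. The authors aligned reads to Ensembl GRCh38 transcripts with kallisto 0.43.0 and deposited estimated counts and TPM (normalised for effective length and library total by kallisto) for each transcript. Here both were summed to genes through Ensembl transcript identifiers in GENCODE 44, which matched 155518 of 173259 transcripts and 94.82 to 95.18% of the counts, and the counts were rounded. Totals ranged from 46613589 to 77964234 over all libraries. Genes with at least 10 counts in at least 3 libraries (17454) entered a limma voom fit of 8 groups with TMM factors and Benjamini-Hochberg adjustment over all of them, at 0.01 (limma 3.58.1, edgeR 4.0.16, R 4.3.3). The fit was tested on simulated data. Values are mean ± SD of 3 replicates, called biological by the study, and p-values measure the spread between these samples. DESeq2 1.42.0, edgeR's quasi-likelihood test and other scalings were alternatives.

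The 43 gene lists and the genes named were chosen with earlier results of these data known. Named were the 12 largest rises and falls with separated groups and at least 10 TPM, the 12 largest within-code sums in each direction passing in both codes, and in each list up to 3 rising and 3 falling members and its most abundant one. Other members were named after their values were seen, as were the response element of interferon, the stretches shown, and the comparisons of 24 h with 8 h, of the 0 h arms and of the arms' changes, and the scaling to 3 reference genes. Some withheld items are not reported here. Transcripts without a match were left out, so levels of HLA and complement genes with alternative haplotypes may be understated.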

Additional observations from a re-analysis of the deposited data

Results flagged for a closer look

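Of the 42 genes with the largest total or within-code changes, 31 had a change from 0 h to 48 h that differed between the TGFβ arm and the untreated arm in a test of the difference itself (limma voom, adjusted p under 0.01), beside 20.7% of all genes tested. The 42 genes were chosen by their change in untreated cells, and the difference uses the same untreated libraries. A smaller change in the TGFβ arm is thus partly built in, and the shares are not like for like. Values are log2 changes of the TGFβ arm minus those of untreated cells. Among genes that rose in untreated cells, the rise was smaller with TGFβ for CHI3L1 (-2.018), CP (-3.534), MGP (-2.248), SLC14A1 (-2.647), CXCL1 (-2.18), C3 (-3.392), AGT (-1.918), A2M (-2.677), CXCL8 (-1.738), MLXIPL (-3.212), RANBP3L (-2.165), AKR1B10 (-0.516), GDF15 (-2.719), CCN1 (-0.32), TNFSF15 (-0.955), RRAD (-1.08), KCNJ2 (-1.101), ASS1 (-0.644), HELZ2 (-0.875) and EPHA2 (-0.671). It was larger for SYT12 (0.756).

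Among genes that fell in untreated cells, the difference was positive for HMOX1 (1.11), CGB5 (6.573), CGB8 (6.298), PTHLH (4.745), PIF1 (0.837), PIMREG (0.638) and NEK2 (0.722). It was negative, a larger fall with TGFβ, for SERPINB2 (-1.366), DHRS9 (-0.916) and CYP1A1 (-0.384). At 48 h the TGFβ arm held 288 TPM of CGB8, 147 TPM of CGB5 and 148 TPM of PTHLH on average, compared with 3.28, 1.27 and 5.66 TPM in untreated cells. The arms carry different codes, so treatment and code cannot be told apart in these differences, and CGB5 and CGB8 share reads.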

How the results depend on the processing

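The total change from 0 h to 48 h called 8617 to 11248 genes under all alternatives other than the 2-fold limit. Leaving out a replicate gave 8707 to 9013 genes, and 3525 to 3909 from 0 h to 8 h, 4788 to 5181 from 8 h to 24 h, 3971 to 4302 from 24 h to 48 h, 4824 to 5141 for the within-code sum, 3190 to 3471 for the arms and 0 to 0 for the 0 h arms. The 2-fold limit left 2992, 418, 683, 729, 1435 and 1265 genes in the first 6 of these. The 0 h arms differed for 1 gene at an adjusted p of 0.05 and 8 by DESeq2. With the 3 reference genes as library size, 9396 genes were called from 24 h to 48 h (8802 higher), 8842 in the within-code sum (8161 higher) and 7583 between the arms (6900 higher), with medians of all genes at 0.35, 0.47 and 0.38, and 75.2% of calls from 0 h to 8 h were higher. GAPDH, one of these references, itself fell. With library totals 62.2% of calls from 0 h to 8 h and 61.4% of within-code sums were higher. Replicate numbers did not pair the untreated 0 h and 48 h libraries (correlations of 0.038, 0.03 and 0.028). Pairing between other time points was not checked. A replicate block gave 10055 genes, and 10143 against 9582 in a fit of the 6 libraries.

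Of the values of named genes, those of opposite sign were PPIB with TPM (0.016 for both pseudocounts), reference genes (0.338) and the within-code sum (0.027), PTPRC with length-scaled counts (-0.015), CCND1 with reference genes (0.292) and the within-code sum (1.135), EBP (0.131), CDKN1B (0.037), HSPA1A (0.214), HSPA4 (0.076) and HSPB1 (0.052) with reference genes, and the within-code sums of FDPS (-0.44), FOSL1 (0.268), TXNIP (-0.148), KLHL24 (-0.009) and HSPA1A (3.614, adjusted p = 0.364). The cause was not tested. The planned set of reference genes is not reported here.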
